A study of Mus musculus with 6 samples.

Results

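CC chemokines are small secreted proteins named for a pair of adjacent cysteines near the start of the mature protein. They bind G protein-coupled receptors on leukocytes, and glycosaminoglycans on cell surfaces and matrix hold them near the cells that make them. In injured or inflamed skeletal muscle they are known for drawing in monocytes, T cells and eosinophils, and resident macrophages, fibro-adipogenic cells and endothelial cells can all produce them. The 10 CC ligand genes described here, Ccl2, Ccl3, Ccl4, Ccl5, Ccl6, Ccl7, Ccl8, Ccl9, Ccl11 and Ccl24, were taken by symbol from the 23361 rows of the authors' deposited table. All 10 had a row and all 10 were among the 14858 genes that the authors tested.

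The RNA came from hindlimb muscle cells of mice aged 4 months, sorted for the surface proteoglycan Sdc4 and labelled primary satellite cells. There were 3 wild-type and 3 AUF1-null samples, and mice of both groups were bred on a C57BL/6 strain of 129 background. AUF1, encoded by Hnrnpd, binds AU-rich elements in mRNAs and affects their stability; the allele of the null mice is described no further in the sources used here. The table compares 2 conditions, named q1 and q2, with 1 pooled value each in FPKM, fragment counts scaled to transcript length and to the number of fragments sequenced. It does not say which condition is AUF1-null, so every direction below is that of q2 relative to q1, not of a genotype. No values of single samples were analysed here. A level therefore carries no SD, standard error or n, and its depth is unknown. Whether the samples of one genotype were taken from different mice is not stated in the labels, and the authors' p-values then measure only the spread between these samples, which may be technical.

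The cysteine pair that names the family is shown here for 4 members, in 30-base stretches of coding sequence from GENCODE vM21 transcripts (GRCm38), read 5′ to 3′ on the coding strand, with the codons of both cysteines in capitals. Ccl2, Ccl7 and Ccl8 lie in the same cluster on chromosome 11, and Ccl4 is the member whose codons differ.
Ccl2, plus strand, chr11:82036494-82036523: gccccactcaccTGCTGCtactcattcacc
Ccl7, plus strand, chr11:82046526-82046555: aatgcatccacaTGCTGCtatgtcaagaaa
Ccl8, plus strand, chr11:82116044-82116073: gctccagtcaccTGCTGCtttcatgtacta
Ccl4, plus strand, chr11:83663470-83663499: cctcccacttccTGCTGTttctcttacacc
The pair was encoded by the same codons in 9 members and by TGC and TGT in Ccl4; in Ccl24, which has 2 such pairs in frame, the second was counted. Longer stretches shared with other transcripts, whose reads could be counted to either gene, were rare. No run of 31 bases of the Ccl2, Ccl3, Ccl4, Ccl5, Ccl7 or Ccl8 transcript occurred in a transcript of another gene, on either strand. The shared fraction was 0.0791% in Ccl24, 0.0951% in Ccl11 and 1.28% in Ccl6. It was highest in Ccl9, at 4.03%, and those runs occurred in transcripts of 1918 other genes.

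Ccl8 was the only member called higher in q2 at the authors' q below 0.05. In the authors' deposited table it went from 65.3 FPKM in q1 to 442 FPKM in q2, a 6.77-fold difference (log2 fold change 2.76, Cuffdiff p = 5.00e-05, q = 0.0108). That p is the smallest in the authors' deposited table and is shared by 69 genes. The other 9 members did not pass the authors' q below 0.05, and none was called lower. Among all tested genes 0.498% were called higher and 0.114% lower, 0.612% in all. By direction alone, 9 members lay above 0 and Ccl24 lay below. The median log2 fold change of the 10 was 0.73, beside -0.0145 over the 14779 tested genes above 0 on both sides, of which the members are a part. At an unadjusted p below 0.05, 5 members were higher (Ccl8, Ccl4, Ccl5, Ccl11 and Ccl3) and 1 was lower (Ccl24), where 3.72% and 2.27% of all tested genes lay past that threshold in each direction.

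**Figure D1:**
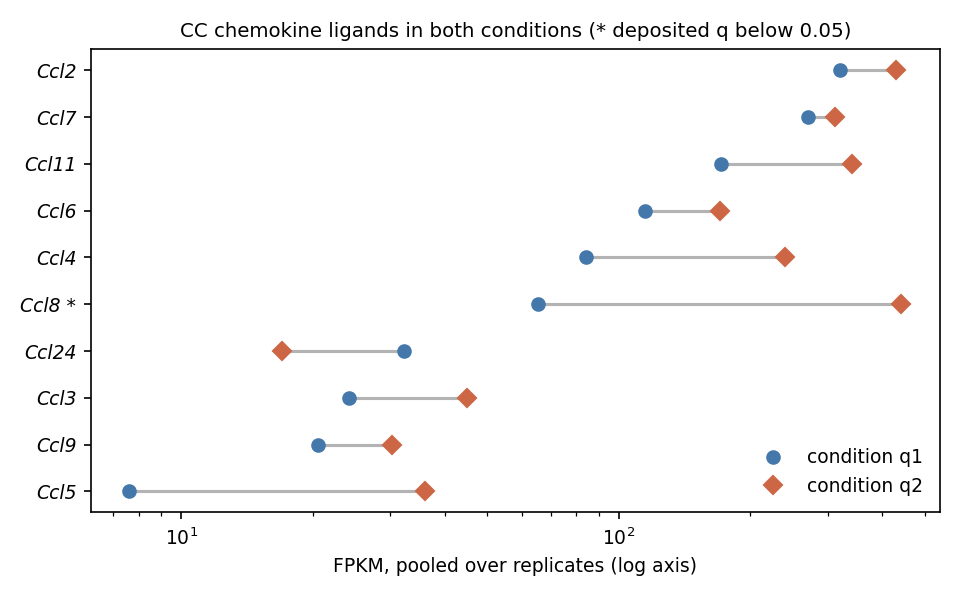
Level of each CC ligand in FPKM (log axis) in condition q1 (circles) and condition q2 (diamonds), each 1 value pooled over replicates by the authors, ordered by q1; an asterisk marks a deposited q below 0.05. Ccl8 moves from 65.3 to 442 FPKM, while Ccl24 alone has its q2 value to the left of q1.

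**Figure D2:**
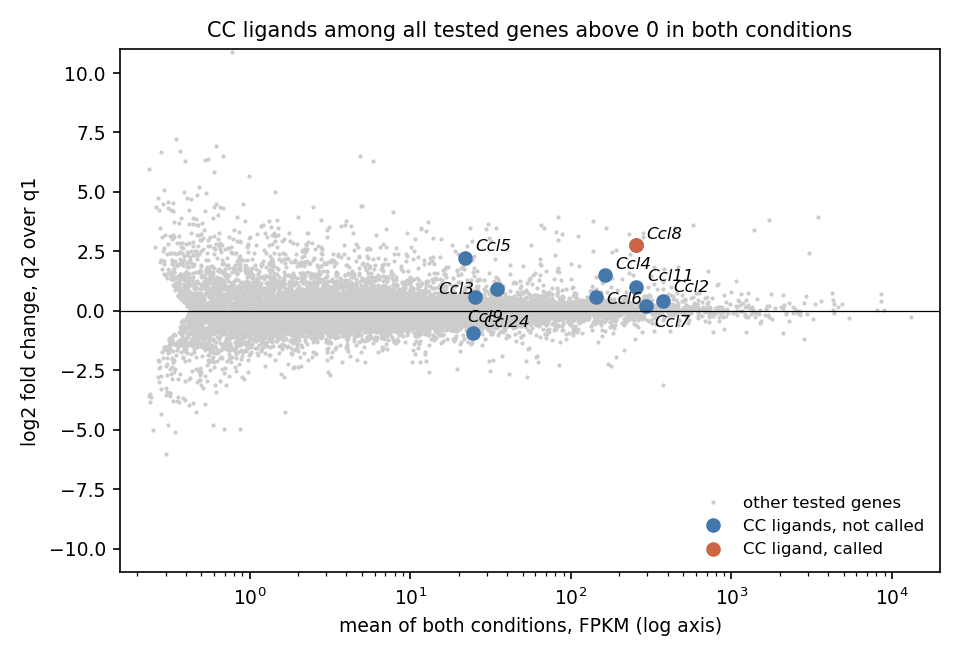
Log2 fold change of q2 over q1 against the mean FPKM of both conditions (log axis) for the tested genes above 0 in both, with the CC ligands as large points. Ccl8, at a log2 fold change of 2.76, is the ligand called by the authors' test; 8 others lie above the zero line and Ccl24 lies below it.

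The ligands best known for attracting monocytes through Ccr2 are Ccl2 and Ccl7; mouse Ccl8 is their close relative but is known to act on Ccr8. Ccl2 was the most abundant of the 10 in q1, and the authors' deposited table listed it at 321 and 431 FPKM (log2 fold change 0.43, Cuffdiff p = 0.286, q = 0.999). Ccl7 followed at 271 and 312 FPKM in the authors' deposited table, with the smallest log2 fold change of the family, 0.20 (Cuffdiff p = 0.606, q = 0.999). Both were thus high on each side, above 97.6% of tested genes in mean level or more, and neither passed. Ccl8 stood at 0.204 times the level of Ccl2 in q1 and at 1.03 times in q2, by the FPKM of the authors' deposited table. Its rank among the 10 went from the sixth to the first, although with no spread beside the values the order of Ccl8 and Ccl2 in q2 cannot be told.

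The eotaxins Ccl11 and Ccl24, which act on Ccr3 of eosinophils, lay on opposite sides. Ccl11, known as a product of fibroblasts, was listed in the authors' deposited table at 171 FPKM in q1 and 342 FPKM in q2, a 2.0-fold difference that did not pass (log2 fold change 1.0, Cuffdiff p = 0.00550, q = 0.338). Ccl24, which alternatively activated macrophages make, stood at 32.3 and 17.0 FPKM in the authors' deposited table, 1.90-fold lower in q2 (log2 fold change -0.93, Cuffdiff p = 0.0342, q = 0.741). The difference between both changes was not tested. Ccl11 was the higher of the pair in each condition, and Ccl24 went from the seventh to the lowest rank among the 10.

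Ccl3, Ccl4 and Ccl5 are inflammatory chemokines made by activated macrophages, T cells and natural killer cells. Ccl4 came closest to the threshold after Ccl8. The authors' deposited table gave it 84.1 and 240 FPKM, a 2.85-fold difference (log2 fold change 1.51, Cuffdiff p = 0.000450, q = 0.0669), and 95 tested genes had a smaller p. Ccl5, the lowest member in q1, had a larger fold from a smaller base, 7.62 against 36.1 FPKM or 4.73-fold in the authors' deposited table (log2 fold change 2.24, Cuffdiff p = 0.00430, q = 0.299). Ccl3, which lies beside Ccl4, was listed at 24.2 and 45.0 FPKM in the authors' deposited table (log2 fold change 0.90, Cuffdiff p = 0.0486, q = 0.822). All of these were higher in q2 without passing the adjusted test.

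Ccl6 and Ccl9 are rodent chemokines of myeloid cells that act through Ccr1. Their log2 fold changes were 0.57 each. Ccl6 was the more abundant, at 115 and 170 FPKM in the authors' deposited table (Cuffdiff p = 0.330, q = 0.999), and Ccl9 stood at 20.5 and 30.4 FPKM there (Cuffdiff p = 0.143, q = 0.999). The authors' position for Ccl6 spans 41.6 kb, chr11:83582061-83623693, against chr11:83587882-83593087 in GENCODE, and also holds a row for E230016K23Rik, listed at 3.40 and 2.0 FPKM in the authors' deposited table.

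Added up over the 10 genes, CC ligand transcripts came to 1111 FPKM in q1 and 2066 FPKM in q2 of the authors' deposited table, 1.86-fold more; the same sum over all rows was 1.08-fold more. Ccl8 made up 39.5% of the summed increase, Ccl11 17.9%, Ccl4 16.3% and Ccl2 11.5%. Without Ccl8 the sums from the authors' deposited table were 1046 and 1623 FPKM, or 1.55-fold. The mix shifted as well, since Ccl2, Ccl7, Ccl11 and Ccl6 together held 78.9% of the sum in q1 and 60.8% in q2. The share of Ccl8 went from 5.88% to 21.4% while that of Ccl7 went from 24.4% to 15.1%. The range within the family was wide on both sides: the highest member exceeded the lowest 42.1-fold in q1 and 26.1-fold in q2. These sums carry no test and no replicate spread.

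By position, 9 of the 10 genes sit on chromosome 11 in a pair of clusters and Ccl24 sits on chromosome 5. The positions in the authors' deposited table, given here 1-based in GRCm38, place Ccl2 (chr11:82035577-82037452), Ccl7 (chr11:82045712-82047523), Ccl11 (chr11:82057832-82062955) and Ccl8 (chr11:82115185-82116799) within 81.2 kb. Between Ccl11 and Ccl8 lies Ccl12, another Ccr2 ligand, at 40.3 and 67.9 FPKM in the authors' deposited table (log2 fold change 0.75, Cuffdiff q = 0.999). Beyond Ccl8 lies Ccl1, a Ccr8 ligand, at 0.632 and 3.70 FPKM there (log2 fold change 2.55, Cuffdiff q = 0.999). The call of Ccl8 was therefore flanked by genes that were not called, among them one with a nearly equal log2 fold change from a low level. The other cluster begins 1.41 Mb further on and spans 139 kb. It holds Ccl5 (chr11:83525779-83530518), Ccl9 (chr11:83572917-83578636), Ccl6, Ccl3 (chr11:83647843-83649378) and Ccl4 (chr11:83662584-83664683), by the authors' deposited table. At its ends, Ccl5 and Ccl4 had log2 fold changes of 2.24 and 1.51, and the 3 genes between them lay between 0.57 and 0.90. Summed by cluster, the 4 members around Ccl2 stood at 828 and 1527 FPKM (1.85-fold) and the 5 around Ccl5 at 251 and 522 FPKM (2.08-fold) in the authors' deposited table. Ccl24 (chr5:135569937-135573043) lies 35.6 Mb from Hnrnpd on the same chromosome.

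**Figure D3:**
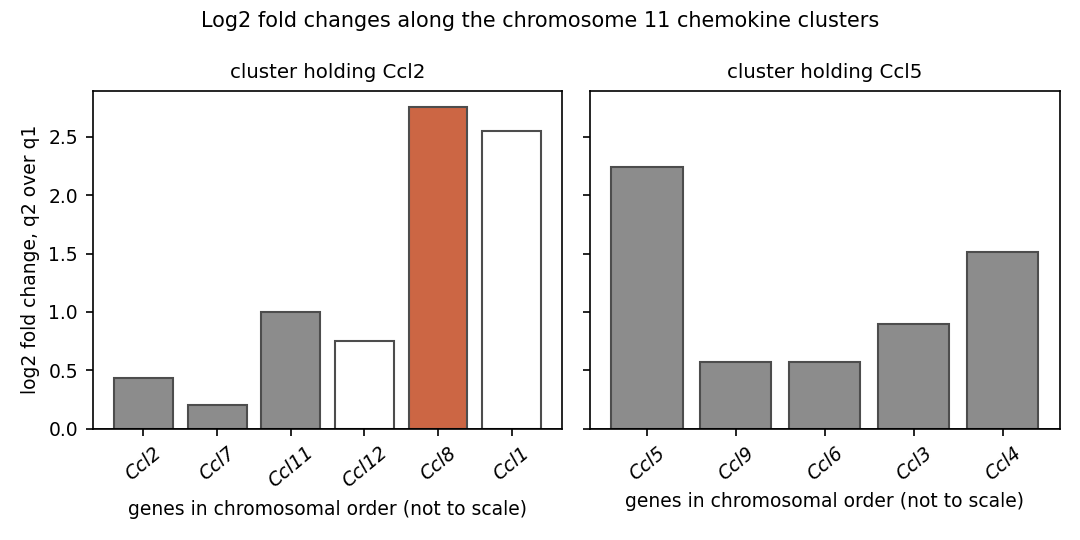
Log2 fold change of q2 over q1 for the genes of both chemokine clusters in chromosomal order, not to scale. The filled coloured bar is Ccl8, called at the deposited q below 0.05; grey bars are members that were not called, and white bars are the neighbours Ccl12 and Ccl1. All bars lie above 0, from 0.20 for Ccl7 to 2.76 for Ccl8.

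AUF1 recognises AU-rich elements, which often hold the pentamer ATTTA, so the longest GENCODE 3′ UTR of each member was searched for it on the transcript strand. The pentamer occurred in 7 members and in 69.3% of the 13063 tested genes with an annotated 3′ UTR, whose median length of 1136 bases exceeded that of every member except Ccl9. Ccl8, with 165 bases of 3′ UTR, had no ATTTA; among genes whose 3′ UTR was 80 to 120% as long, 23.7% had one. Ccl5 (199 bases) and Ccl24 (858 bases) had none either, against 24.7% and 68.4% of genes of like length. Ccl3 had 5 copies in 409 bases, as many or more than which 0.375% of genes of like length had. Ccl11 had 5 copies in 644 bases (3.15% of genes of like length had as many), Ccl9 5 in 2465 bases (41.3%) and Ccl6 4 in 943 bases (12.5%). Ccl7 had 2 copies in 435 bases (17.5%), Ccl4 2 in 302 bases (12.6%) and Ccl2 1 in 275 bases (34.5%). The longer element TTATTTAT, which contains the pentamer, occurred in Ccl4 alone among the 10; 3.76% of genes of like length and 14.1% of all tested genes with a 3′ UTR had it. Sites of 4 members follow, 30 bases each, 5′ to 3′ on the transcript strand with ATTTA in capitals: the members with the most copies for their length, the one with the longer element, and Ccl2 for comparison.
Ccl3, minus strand, chr11:83648061-83648090: aATTTAatcctattggtttaatactATTTA
Ccl11, plus strand, chr11:82062656-82062685: aATTTAcactaactaaaatgttaatATTTA
Ccl4, plus strand, chr11:83664541-83664570: tattatttctattATTTAtgttttagttat
Ccl2, plus strand, chr11:82037205-82037234: taatattaaacttATTTAacttattgatgt
Of these 4 none passed the authors' test (Cuffdiff q = 0.822, 0.338, 0.0669 and 0.999 in the order shown, from the authors' deposited table). Only 0.612% of all tested genes were called, so the lack of a call among 4 tells nothing about these sites. The called Ccl8 has no such site in this annotation. A match describes the letters only; binding by AUF1 was not measured here.

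Of the other CC ligands, 12 of 14 listed genes had a row of their own, 8 were tested and none was called; 4 lay above and 4 below 0, with a median log2 fold change of 0.05. In the authors' deposited table Ccl19, a lymph node ligand of Ccr7, stood at 33.9 and 25.3 FPKM (Cuffdiff q = 0.999), and a line naming Ccl21a together with Gm1987 stood at 97.6 and 129 FPKM (Cuffdiff q = 0.999). The Ccr4 ligands Ccl17 and Ccl22, typical of dendritic cells, were low, at 2.91 and 1.02 FPKM and at 2.82 and 1.16 FPKM in the authors' deposited table (Cuffdiff q = 0.999 and 0.915). Ccl25 was at 1.89 and 2.72 FPKM there and Ccl27a at 5.61 and 3.63 FPKM (Cuffdiff q = 0.999 each). Ccl20, Ccl21c and Ccl27b were listed at 0 in both conditions.

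Among the receptors, Ccr2 and Ccr7 were called higher in q2. Ccr7, the receptor of Ccl19 and Ccl21 that guides T and dendritic cells, went from 2.54 to 13.4 FPKM in the authors' deposited table (log2 fold change 2.40, Cuffdiff q = 0.0275). For Ccr2, the receptor of Ccl2, Ccl7 and Ccl12 on inflammatory monocytes, the authors' deposited table gave 7.41 and 25.4 FPKM (log2 fold change 1.77, Cuffdiff q = 0.0275). In all, 2 of the 8 tested receptor genes considered were called higher and none lower, where 0.498% and 0.114% of all tested genes were. Of the 8, 6 lay above 0, and the median log2 fold change was 1.19. Ccr1, the receptor of Ccl3, Ccl5, Ccl6 and Ccl9, was listed at 12.3 and 28.3 FPKM in the authors' deposited table (Cuffdiff p = 0.00360, q = 0.269). Ccrl2, which binds chemerin and lacks ordinary signalling, stood at 26.6 and 34.7 FPKM in the authors' deposited table (Cuffdiff q = 0.999). The receptors of the eotaxins and of Ccl8 were low: Ccr3 was at 0.15 and 0.521 FPKM and Ccr8 at 1.02 and 0.971 FPKM in the authors' deposited table (Cuffdiff q = 0.859 and 0.999).

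**Figure D4:**
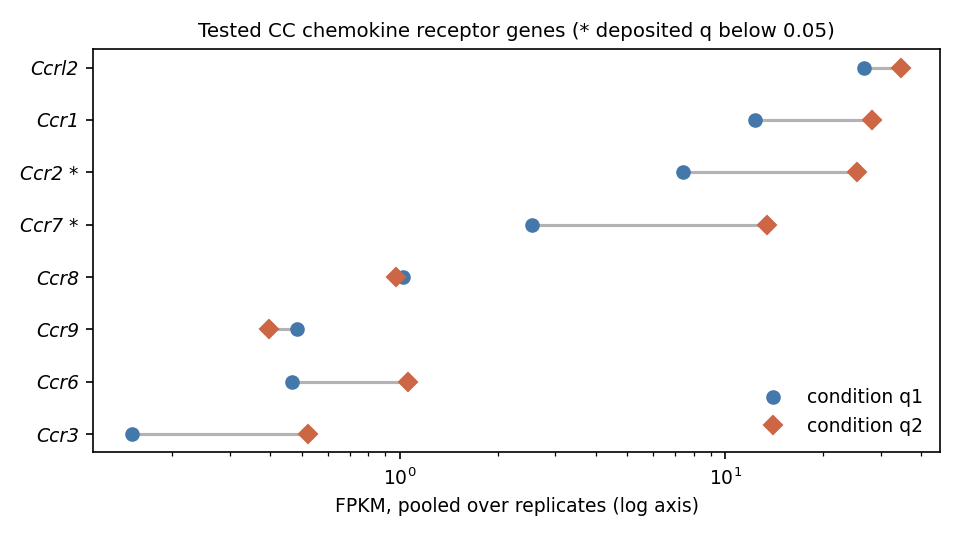
Level of 8 tested CC receptor genes in FPKM (log axis) in condition q1 (circles) and q2 (diamonds), 1 pooled value each, ordered by q1; asterisks mark a deposited q below 0.05. Ccr2 and Ccr7 carry asterisks, and the eotaxin receptor Ccr3 is the lowest in q1, at 0.15 FPKM, while Ccr9 is the lowest in q2, at 0.396 FPKM.

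Across all tested genes 0.612% were called in either direction. In the short lists of genes upstream and downstream of the ligands, 1 or 2 calls already exceed that share. Of 21 tested inducers and regulators of chemokine transcription, Il1b and Ifng were called higher and none lower. The median log2 fold change was -0.05 over the 20 that were above 0 in both conditions, which leaves out Ifng. Il1b, which induces many chemokine genes, went from 39.3 to 125 FPKM in the authors' deposited table (Cuffdiff q = 0.0201), and Ifng was listed there at 0 in q1 and 1.34 FPKM in q2 (Cuffdiff q = 0.0108). The targeted gene Hnrnpd itself stood at 7.50 and 5.59 FPKM in the authors' deposited table (Cuffdiff q = 0.999). Of 22 tested genes of signalling below the receptors, Rac2, a GTPase of leukocytes, was called, at 17.4 and 66.2 FPKM in the authors' deposited table (Cuffdiff q = 0.0108; median of the list 0.24). None of 11 tested atypical receptors and proteoglycan carriers was called (median 0.03). Among them were Darc, an atypical receptor of venules, at 349 and 154 FPKM (Cuffdiff q = 0.502), and the sorting marker Sdc4 at 173 and 270 FPKM (Cuffdiff q = 0.999), in the authors' deposited table. Of 16 tested ligands of the other chemokine classes none was called, with a median of 0.22; Cxcl1 was at 462 and 790 FPKM and Cxcl12 at 363 and 340 FPKM in the authors' deposited table (Cuffdiff q = 0.806 and 0.999).

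Tested markers of neutrophils and of T and natural killer cells lay above 0 throughout, and tested endothelial markers lay below 0 throughout. Those of the other cell types were mixed. Among the T and natural killer cell markers, Klrd1 was all but level, at 0.733 and 0.734 FPKM in the authors' deposited table. Of the untested ones, Cd8b1 was lower in q2, at 0.345 and 0.0713 FPKM there, while Prf1 and Klrb1c were higher. In bulk RNA a change in the number of cells of a type and a change in RNA per cell cannot be told apart. Summed over the tested markers in the authors' deposited table, neutrophil genes came to 1204 and 15518 FPKM (12.9-fold, 10 of 13 called higher and all 13 above 0, led by S100a8 at 426 and 6478 FPKM). T and natural killer cell genes came to 11.2 and 51.6 FPKM there (4.62-fold, 1 of 11 called and all 11 above 0, Nkg7 at 3.37 and 27.6 FPKM). Nkg7 held most of the q2 sum, and without it the sum was 3.07-fold higher in q2, by the authors' deposited table. The other tested markers of this list were low, the highest being Lck at 2.33 and 6.58 FPKM in the authors' deposited table.

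Macrophage and monocyte genes summed to 1878 and 3457 FPKM in the authors' deposited table (1.84-fold, 2 of 20 called higher, Ccr2 and Ly6c2, the latter at 11 and 124 FPKM). That sum leaned on Lyz2 (633 and 1504 FPKM) and Cd14 (227 and 525 FPKM); without both it was 1018 and 1428 FPKM, or 1.40-fold, by the authors' deposited table. The list had 14 members above and 6 below 0 and a median log2 fold change of 0.35, and Csf1r, the receptor that sustains macrophages, stood at 83.8 and 49.7 FPKM and Cd163 at 23.1 and 13.1 FPKM there (Cuffdiff q = 0.999 and 0.798). Eosinophil and mast cell genes came to 231 and 646 FPKM in the authors' deposited table, but without Prg2, an eosinophil granule protein that rose from 52.0 to 510 FPKM, they came to 179 and 136 FPKM. Besides Prg2, Epx was called, from 2.73 to 17.4 FPKM in the authors' deposited table. In all, 7 of the 12 tested members lay below 0 (median -0.42), among them the mast cell proteases Tpsb2, at 86.7 and 40.9 FPKM, and Cpa3, at 23.2 and 13.2 FPKM (Cuffdiff q = 0.555 and 0.999). The list pools both cell types. Of its eosinophil genes, Prg2, Epx, Ccr3 and Ear2 (3.02 and 15.9 FPKM, Cuffdiff q = 0.999) lay above 0 and Il5ra below. Of its mast cell genes only Kit lay above 0. The sums without Prg2, led by Tpsb2, are thus mostly those of mast cell genes.

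Fibroblast genes summed to 5533 and 4726 FPKM in the authors' deposited table, with none of 11 called, 4 above 0 and a median of -0.15. Gsn made most of that difference, at 3583 and 2822 FPKM; without it the sums were 1950 and 1904 FPKM in the authors' deposited table, and Dcn, the next in abundance, stood at 1259 and 1407 FPKM. Endothelial genes came to 16715 and 13880 FPKM there, all 10 below 0 and 1 called lower, Plvap at 140 and 28.8 FPKM. Fabp4 held most of that sum, at 14386 and 12032 FPKM in the authors' deposited table. Without Fabp4 the endothelial sums were 2329 and 1849 FPKM there. None of 12 tested satellite cell genes was called, with 6 above and 6 below 0 and a median of -0.01. Their sum was 422 and 484 FPKM with the sorting marker Sdc4 and 249 and 214 FPKM without it, by the authors' deposited table; Vcam1 stood at 90.8 and 65.1 FPKM and Pax7, the defining factor of satellite cells, at 1.16 and 0.854 FPKM. No marker with a row was at 0 in either condition. The part of these cell types in the CC ligand values was not tested, and the sums without single markers were chosen after seeing the data.

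The 3 tested genes nearest to Ccl8 in log2 level over the 2 conditions were Lcn2, Mir142 and Prg2. Lcn2 was listed at 57.7 and 502 FPKM (distance 0.26 in log2 units), Mir142 at 76.0 and 393 FPKM (0.28) and Prg2 at 52.0 and 510 FPKM (0.39) in the authors' deposited table. Lcn2 and Prg2 were called (Cuffdiff q = 0.0108 each) and Mir142 was not (Cuffdiff q = 0.999), although its fold was close to that of Ccl8.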

How the data were processed

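RNA from 3 wild-type and 3 AUF1-null samples was sequenced. The tools, per the submitters' processing notes, were TopHat2 2.0.9 and Cufflinks 2.2.1; annotation, normalization between libraries and strandedness are not given in sources used here. Per the file headers, the authors deposited a table in the Cuffdiff layout with 1 FPKM value per condition (q1, q2) pooled over replicates, the log2 fold change, a test statistic (a score, not used here), p-values and q-values. The headings name no unit. The notes name mm9, but 99.5% of 21500 genes on the same chromosome overlapped GENCODE vM21 (GRCm38), so positions are GRCm38, with 1 added to starts.

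Genes with status OK were tested by the authors (14858); 8499 were NOTEST and 4 HIDATA. A gene was called at a deposited q below 0.05, which matched Benjamini-Hochberg values recomputed from the deposited p within 5.1e-07. No test between samples was run. Sums, shares, ranks, motif counts and 31-base matches were computed with Python 3.11.15, pandas 2.3.3 and numpy 2.4.6; the adjustments were tested on simulated data. The members and 13 other gene lists were chosen with earlier results of these data known. Named genes were all members, Hnrnpd, other CC ligands and receptors with a mean of at least 1 FPKM, up to 4 called genes per list or the 2 most abundant where none was called, and the 3 genes nearest to Ccl8. S100a8 stands for several neutrophil genes of equal q. Ccr3, Ccr8, Pax7, Ccr9, Lyz2, Cd14, Csf1r, Cd163, Tpsb2, Cpa3, Ear2, Il5ra, Kit, Klrd1, Cd8b1, Prf1, Klrb1c and Fabp4 were named after their values were seen. So were Lck, E230016K23Rik, the joint Ccl21a line and genes listed at 0. A receptor gene is not reported here.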

Additional observations from a re-analysis of the deposited data

How the results depend on the processing

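The number of CC ligands called higher, 1 at a deposited q below 0.05, depended on the threshold. It was 2 at a q below 0.10 (Ccl8 and Ccl4) and 0 at a q below 0.01, where no gene of the table is called. At an unadjusted p below 0.05 it was 5, and 1 was lower. Among the 6884 genes that reach 10 FPKM in a condition, with p-values adjusted again, it was 2, since Ccl4 then passed (q = 0.0419). Under the Benjamini-Yekutieli adjustment it was 0 (Ccl8 at 0.110), and no gene was called. Among genes that reach 1 FPKM, or that are above 0 on both sides, Ccl8 alone was called (q = 0.0118 and 0.0145). None was called lower in the other settings. Pseudocounts of 0.1 and 1, centring on the median of tested genes and scaling to equal sums changed the direction of 0 members and moved a log2 fold change by at most 0.14; the median stayed between 0.62 and 0.75. No paired analysis was possible because the table holds 1 pooled value per condition, so leaving out replicates and other count tools were not run either. Depth is unknown, and a missed call does not show that a ligand was unchanged.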
